A study of Mus musculus with 18 samples.

Results

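The genes that lie around Trp53 on mouse chromosome 11 were followed through 3 time points of IL-3 withdrawal in cells with and without p53. A list of 51 gene symbols defined the set, all of them within a stretch that runs from 23 protein-coding genes before Trp53 (Pfas) to 119 protein-coding genes after it (Tax1bp3) in the RefSeq gene order, and every probe carrying one of those symbols in the array annotation was taken. Of the 46632 probes on an array, which name 17701 genes in all, 74 belonged to 49 of the 51 genes, since Kdm6b and Polr2a had no probe. After probes that were not detected on any array had been removed, 54 member probes of 40 genes remained among 21413 probes in all. The other 9 genes on the array (Slc2a4, Shbg, Dnah2, Dvl2, Dlg4, Cldn7, Asgr1, Asgr2 and Efnb3) had no detected probe and received no test.

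RNA came from factor dependent myeloid (FDM) cells, myeloid progenitor lines that were immortalized with HoxB8 and need IL-3 to live. The 6 groups were WT cells and p53-/- cells, each kept with IL-3 (0 h) or sampled 6 h or 18 h after IL-3 was taken away, with 3 arrays in a group and 18 arrays in all. All cells of both genotypes carried HoxB8, so no group shows the locus in a primary myeloid cell. Replicates of a genotype were independent clones, each followed through the time series, and clones can differ for reasons other than p53. The study's text speaks of a neomycin resistance cassette in the p53-/- cells, while the strain of the animals and the further structure of the targeted allele were not given in the sources used here.

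When a gene is removed by homologous recombination, the chromosome that carries the targeted allele also keeps sequence from the embryonic stem cell strain on both sides of the target, and a selection cassette can remain at the site. A neighbor of the target can therefore differ between the genotypes through its position alone, either because the passenger sequence holds another allele, to which a probe may bind less well, or because the cassette acts on it in cis. p53 is also a transcription factor, and a neighbor can be one of its targets like any other gene. A difference that comes from position may be present in every clone and may be kept when the cells lose IL-3. Whether differences near Trp53 were kept was the question put to the arrays. Persistence does not mark position by itself, because 188 of 14829 probes on other chromosomes also differed at all 3 times in 1 direction (rule given below). The arrays cannot tell a changed transcript from a changed match between a probe and its transcript, and the origin of the differences below was not tested.

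All values are log2 intensities after background correction and quantile normalization. A probe was called where its adjusted p was at most 0.1 and B, the log odds that it differs, was above 0. The p21 gene Cdkn1a, a p53 target, was lower in p53-/- cells at all times, by 2.3 to 3.02 at 0 h on its 2 probes, and both were called at each time. Array medians ranged from 102.9 to 175.2 intensity units, and 30.69 to 34% of the probes were detected on every array but the third p53-/- array at 18 h, where 27.01% were. That array received a weight of 0.0905 in the fit, against 4.34 for the second WT array at 0 h, so that at 18 h the fitted p53-/- level followed the first and the second clone. The defining markers of lymphoid cells were at background (Cd3e, Cd4 and Cd79a were not detected on any array), and of the 4 non-blood markers Epcam and Col1a1 were not detected either. Another, Pecam1, which endothelial and blood cells both express, was lower in p53-/- cells (11.68 to 13.66 on WT arrays and 10.9 to 11.81 on p53-/- arrays, -1.61 over clone means, adjusted p = 0.0264). The clones of the 2 genotypes differed in lineage markers. Slc4a1, the anion exchanger of red cells, lay between 4.45 and 5.28 on the 9 WT arrays and between 7.85 and 11.89 on the 9 p53-/- arrays, and the summed level of 7 erythroid and megakaryocyte markers ranged from 12.97 to 14.45 (log2) on WT arrays and from 14.31 to 15.78 on p53-/- arrays. The mast cell gene Fcer1a was lower in p53-/- cells (13.68 to 14.43 on WT arrays, 11.34 to 13.51 on p53-/- arrays), while the summed level of 6 mast cell and basophil markers ranged from 15.42 to 16.18 and from 14.12 to 15.53. Genotype and this difference in lineage markers cannot be told apart, and its part in the results below was not tested.

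Among the 54 member probes, 2 were called higher and 5 lower in p53-/- cells at 0 h, 7 higher and 5 lower at 6 h, and 8 higher and 3 lower at 18 h. Over all probes tested the shares called were 1.98% higher and 2.35% lower at 0 h, 3.82% and 4.23% at 6 h, and 3.68% and 3.75% at 18 h. Thus 7 of the 54 member probes were called at 0 h, 22.2% of them at 6 h and 20.4% at 18 h, counts that include several probes of 1 gene and are given as a description. The median difference of the member probes was 0.139 at 0 h, 0.255 at 6 h and 0.232 at 18 h on the log2 scale, against 0.038, 0.025 and 0.017 over all probes. The directions depended in part on the scaling of the arrays. With median scaling in place of quantile normalization 1 member probe was called higher and 4 lower at 0 h, 6 and 2 at 6 h, and 8 and 8 at 18 h. The counts over all probes shifted too. With median scaling 223 were called higher and 567 lower at 0 h, 722 and 637 at 6 h, and 1380 and 2421 at 18 h. With quantile normalization these counts were 423 and 504, 818 and 906, and 788 and 802.

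**Figure D1:**
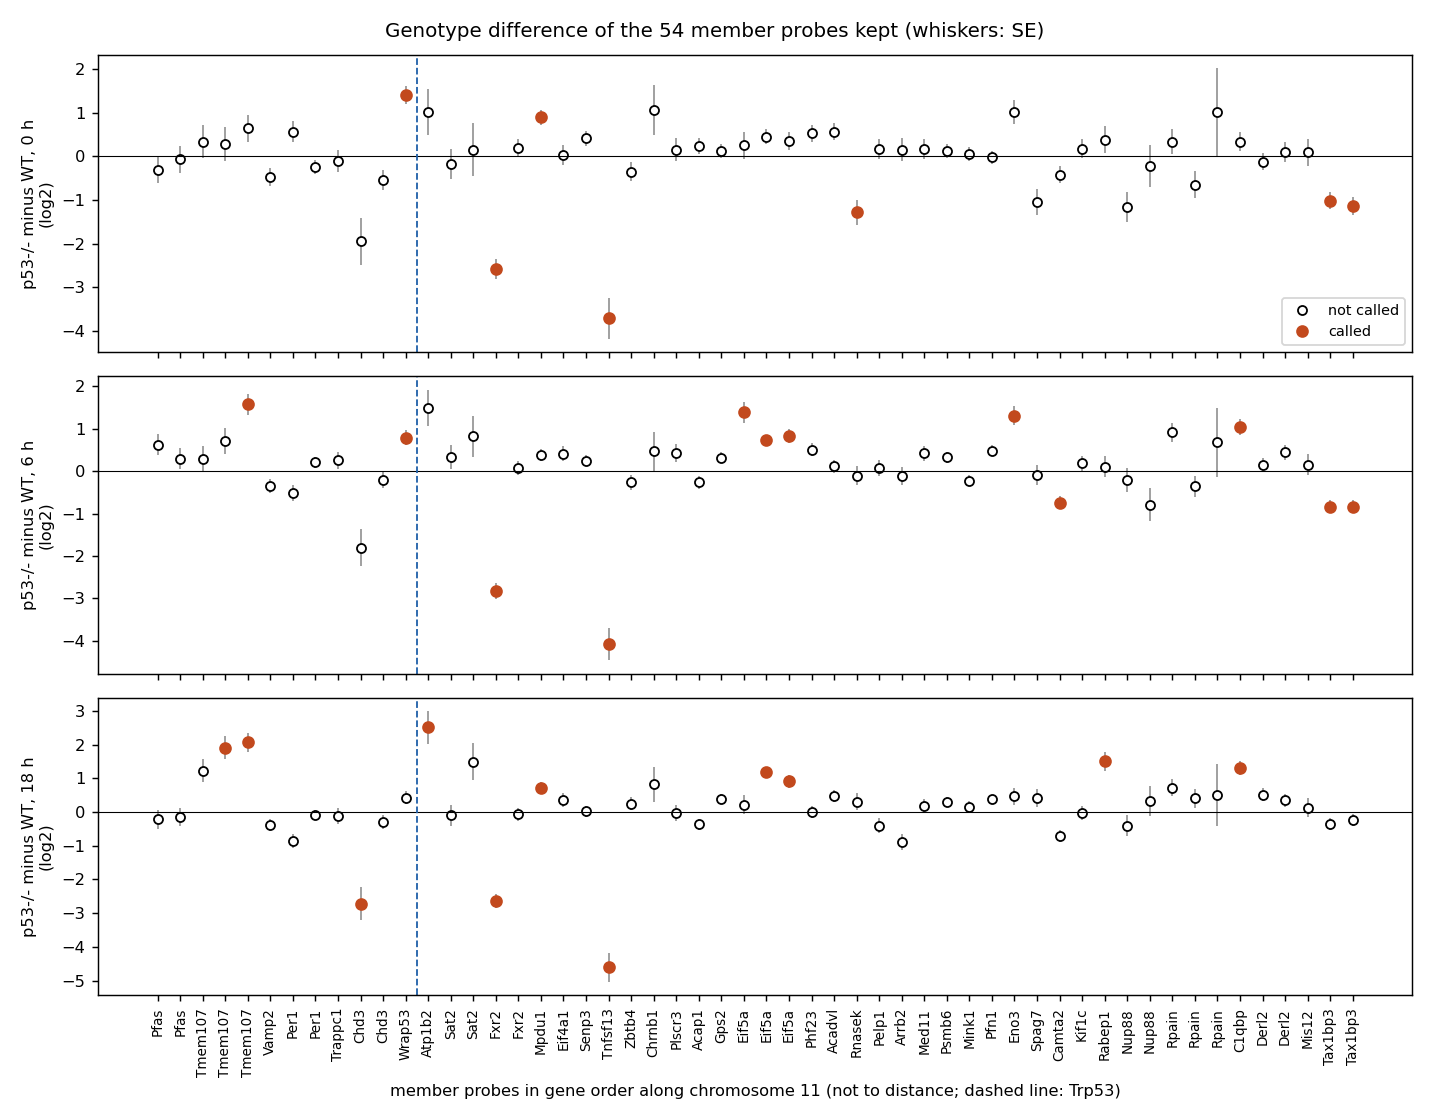
Difference between p53-/- and WT cells (y axis, log2) for the 54 member probes kept, in gene order along chromosome 11 (x axis, not to distance), at 0, 6 and 18 h. Filled points are called, whiskers are SE and the dashed line is the place of Trp53; 1 of the 2 Fxr2 probes and Tnfsf13 were far below 0 at each time, while their neighbors Mpdu1 and Wrap53 lay above it.

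A difference that was called at 0, 6 and 18 h in 1 direction was found for 2 of the 54 member probes, against 1.12% of all probes. They belonged to Fxr2, 4 protein-coding genes after Trp53, and Tnfsf13, 11 after it, and both were lower in p53-/- cells. When the 3 arrays of each clone were averaged and the 3 WT clones were compared with the 3 p53-/- clones, 1 member probe was called higher (0.999% of all probes) and 2 lower (1.27%), namely Tmem107, Fxr2 and Tnfsf13. With all 18 arrays and clone as a random block, 14 member probes were called for the mean of the 3 differences, against 11.2% of all probes. These were the 3 above and 11 probes of Wrap53, Mpdu1, Tax1bp3, Chd3, Camta2, C1qbp, Eif5a, Eno3 and Atp1b2.

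Fxr2 encodes an RNA-binding protein of the fragile X family. Its 2 detected probes gave different results. With the first probe (ILMN_1230048) the WT clones gave 9.69, 10.30 and 10.19 at 0 h, 10.29, 10.47 and 10.44 at 6 h, and 10.49, 10.38 and 9.73 at 18 h. Values in the p53-/- clones were 7.62, 7.44 and 7.78 at 0 h, 7.69, 7.43 and 7.83 at 6 h, and 7.52, 7.89 and 6.59 at 18 h. Every p53-/- array was below every WT array. The difference was -2.59 ± 0.232 at 0 h (SE; adjusted p = 4.46e-05), -2.82 ± 0.186 at 6 h (adjusted p = 5.69e-07) and -2.64 ± 0.212 at 18 h (adjusted p = 3.33e-06), or 6.02-, 7.07- and 6.23-fold, and it changed with time by -0.23 from 0 h to 6 h and by -0.05 from 0 h to 18 h (adjusted p = 0.875 and 0.956). Over clone means it was -2.69 ± 0.149 (adjusted p = 0.00301), from 10.22 ± 0.14 in WT clones to 7.53 ± 0.12 in p53-/- clones (SD, n = 3). All 4 calls held in every other setting tried and without each single array or clone. In cultures measured as a whole, fewer cells that express a gene, less RNA per cell and a changed match between probe and transcript cannot be told apart. This holds for the genes below as well, and for Fxr2 the lower signal was that of the first probe only.

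The second Fxr2 probe (ILMN_1260445) showed no such difference. It read 8.24 to 8.48 on WT arrays and 8.17 to 8.71 on p53-/- arrays at 0 h, 7.98 to 8.53 and 8.31 to 8.86 at 6 h, and 8.68 to 9.02 and 8.77 to 9.46 at 18 h. The genotypes overlapped at every time. The differences were 0.20 ± 0.207, 0.08 ± 0.166 and -0.07 ± 0.188 at 0, 6 and 18 h (adjusted p = 0.597, 0.785 and 0.836). Both probes were detected on all 18 arrays, so the loss of signal in p53-/- cells was seen with 1 of the 2 probes of the gene. Which part of the transcript each probe reads was not used here. The RefSeq promoter window of Fxr2 is shown because 1 probe of the gene was called at 0, 6 and 18 h. It holds 300 bases that span the transcription start (GRCm38.p6, chr11:69632721-69633020, plus strand). In this window and those below, capitals mark a p53 half-site decamer or CACGTG on either strand, and the Fxr2 window had no match to either.
Fxr2: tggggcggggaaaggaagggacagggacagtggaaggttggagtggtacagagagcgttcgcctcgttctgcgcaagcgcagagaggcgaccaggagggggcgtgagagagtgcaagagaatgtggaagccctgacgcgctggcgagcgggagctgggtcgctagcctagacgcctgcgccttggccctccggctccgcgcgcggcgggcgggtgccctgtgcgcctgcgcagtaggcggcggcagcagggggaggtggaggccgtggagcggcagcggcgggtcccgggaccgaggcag

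Tnfsf13 encodes APRIL, a cytokine of the tumor necrosis factor family that acts on B-lineage cells. Its probe gave 8.70, 8.79 and 9.15 in the WT clones at 0 h, 9.15, 9.14 and 10.17 at 6 h, and 10.16, 10.21 and 10.71 at 18 h. In the p53-/- clones it gave 4.84, 6.00 and 4.52 at 0 h, 4.73, 6.07 and 4.46 at 6 h, and 5.14, 6.16 and 4.94 at 18 h. Only the second p53-/- clone was detected, at all 3 times, and every p53-/- array was below every WT array. The difference was -3.71 ± 0.472 at 0 h (adjusted p = 0.000424), -4.08 ± 0.378 at 6 h (adjusted p = 9.52e-06) and -4.60 ± 0.43 at 18 h (adjusted p = 1.14e-05), or 13.1-, 16.9- and 24.2-fold, and since 6 of the 9 p53-/- values were not above background these folds rest on the normalized values. The clone means were 9.58 ± 0.38 for WT and 5.21 ± 0.77 for p53-/- (SD, n = 3), a difference of -4.37 ± 0.399 (SE; adjusted p = 0.0109). The level in WT clones was 1.43 higher at 18 h than at 0 h (adjusted p = 0.00389), which did not meet both thresholds but was called with clone as a block, and in p53-/- clones it was 0.54 higher (adjusted p = 0.636). The call at 18 h was lost when the first p53-/- array of that time was left out (-4.71); the other 3 calls held without each single array or clone and in every other setting. The promoter window of Tnfsf13 (GRCm38.p6, chr11:69685505-69685804, minus strand), shown for the same reason as that of Fxr2, had no match to either motif.
Tnfsf13: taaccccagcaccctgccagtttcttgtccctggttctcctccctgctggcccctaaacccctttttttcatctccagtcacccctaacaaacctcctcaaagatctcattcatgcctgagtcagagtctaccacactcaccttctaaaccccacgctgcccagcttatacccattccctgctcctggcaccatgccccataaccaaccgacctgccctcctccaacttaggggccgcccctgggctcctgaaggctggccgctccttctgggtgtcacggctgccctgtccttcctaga

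**Figure D2:**
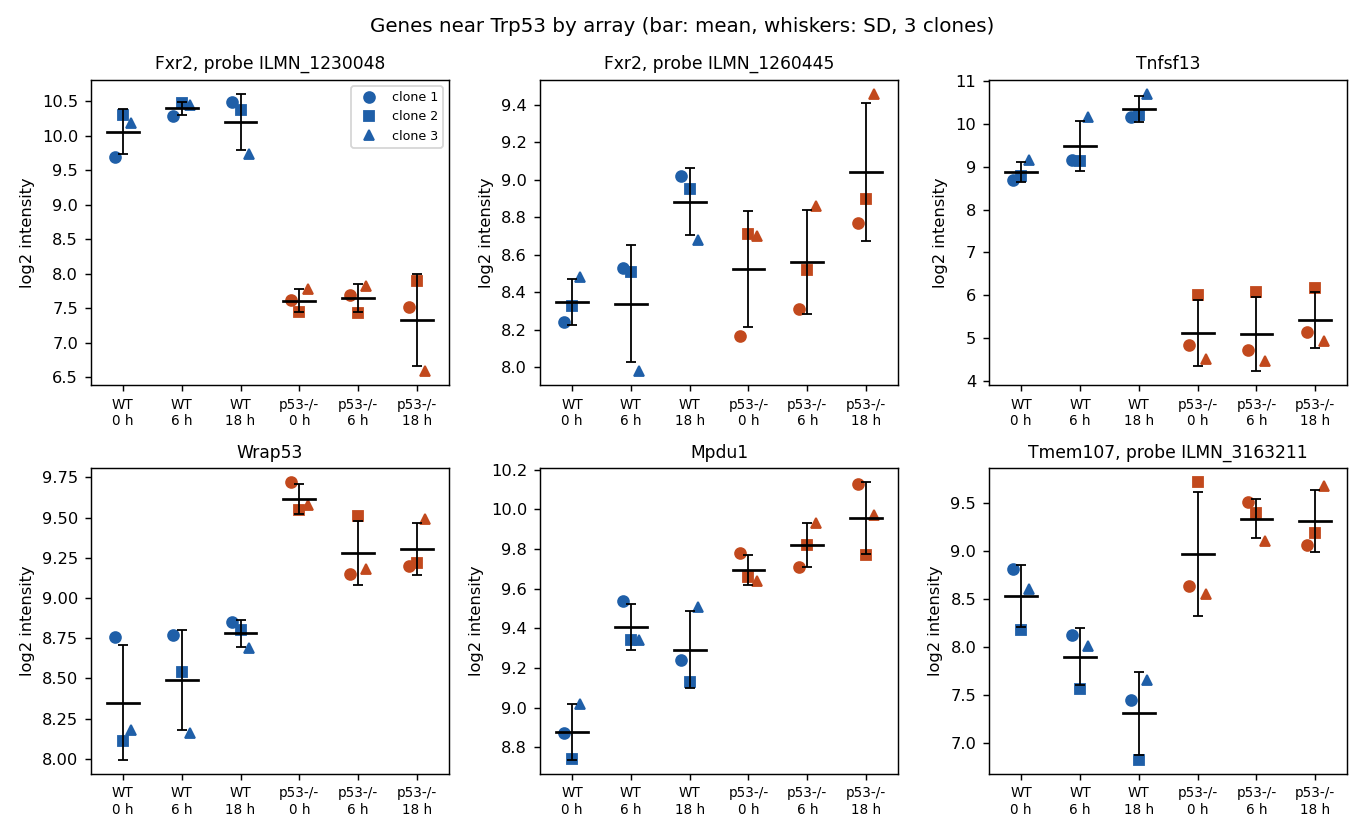
Log2 intensity (y axis) of 6 member probes on each of the 18 arrays by group (x axis). Symbols mark the 3 clones of a genotype, bars the mean and whiskers the SD; the first Fxr2 probe and Tnfsf13 were lower on all 9 p53-/- arrays, Wrap53 and Mpdu1 were higher on all 9, and the second Fxr2 probe overlapped.

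Wrap53 and Mpdu1 were higher in p53-/- cells. Wrap53, which starts next to Trp53 on the opposite strand and encodes a telomerase and Cajal body protein, gave 8.76, 8.11 and 8.18 in WT clones at 0 h, 8.77, 8.54 and 8.16 at 6 h, and 8.85, 8.80 and 8.69 at 18 h. The p53-/- clones gave 9.72, 9.55 and 9.58 at 0 h, 9.15, 9.51 and 9.18 at 6 h, and 9.20, 9.22 and 9.49 at 18 h. The 9 p53-/- arrays lay above the 9 WT arrays, and the gap was narrower at the later times. The difference was 1.41 ± 0.213 at 0 h (adjusted p = 0.00127), 0.79 ± 0.171 at 6 h (adjusted p = 0.00395) and 0.42 ± 0.194 at 18 h (adjusted p = 0.143, not called). The change in the difference was -0.62 by 6 h and -0.99 by 18 h (adjusted p = 0.543 and 0.081, neither called), and over clone means the difference was 0.86 ± 0.162 (adjusted p = 0.0364, B not positive). The 0 h call held in all settings and without each array, whereas the 6 h call was lost without any 1 of 15 of the 18 arrays (0.65 to 0.85).

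Mpdu1, needed for the use of mannose-phosphate-dolichol in protein glycosylation, lies 6 protein-coding genes after Trp53. WT clones gave 8.87, 8.74 and 9.02 at 0 h, 9.54, 9.34 and 9.34 at 6 h, and 9.24, 9.13 and 9.51 at 18 h. Values in the p53-/- clones were 9.78, 9.66 and 9.64 at 0 h, 9.71, 9.82 and 9.93 at 6 h, and 10.13, 9.77 and 9.97 at 18 h. All 9 p53-/- arrays were above all 9 WT arrays. The difference was called at 0 h (0.89 ± 0.168, adjusted p = 0.00391) and at 18 h (0.73 ± 0.153, adjusted p = 0.00369). It was not called at 6 h (0.38 ± 0.134, adjusted p = 0.0529), when the WT level had risen by 0.61 (adjusted p = 0.00269). The change in the difference was -0.512 by 6 h and -0.167 by 18 h (adjusted p = 0.522 and 0.756, neither called). The call at 0 h was lost without the first or the second WT array or the first p53-/- array (0.75 to 0.85), and that at 18 h without the first or the second array of either genotype (0.56 to 0.84); both were lost with median scaling (0.71 and 0.42).

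In all, 2 member probes had all 9 p53-/- arrays above all 9 WT arrays (Wrap53 and Mpdu1, against 1.59% of all probes), and 2 had them all below (Fxr2 and Tnfsf13, against 1.66%). Between these genes lay others without a called difference. Sat2 (3 coding genes after Trp53) was detected on at most 5 arrays. Eif4a1 (8 after) differed by 0.04, 0.41 and 0.36 at the 3 times and Senp3 (9 after), a SUMO protease of the nucleolus, by 0.42, 0.25 and 0.02 (adjusted p from 0.118 to 0.956 for the 2 genes). The 4 genes with separated arrays were thus not a block of adjacent genes.

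Atp1b2, the first coding gene after Trp53, encodes a beta subunit of the sodium-potassium pump. It was not detected in WT cells at 0 h (5.01, 4.83 and 4.82) and was detected on 1 array each at 6 h (6.02, 4.78 and 4.69) and 18 h (6.96, 5.18 and 4.84). In p53-/- clones it gave 6.29, 6.52 and 4.87 at 0 h, 6.71, 6.60 and 6.51 at 6 h, and 7.88, 8.18 and 9.43 at 18 h. At 18 h the groups did not overlap and the difference was 2.52 ± 0.482 (adjusted p = 0.00208). It was 1.5 ± 0.424 at 6 h (adjusted p = 0.0189, not called). At 0 h the p53-/- mean was at least 1.18-fold higher, a bound against the dimmest detected probes on the WT arrays. The 0 h difference was not called (adjusted p = 0.227), and the third p53-/- clone (4.87) lay within the WT range. Leaving out either of the last 2 WT arrays or either of the first 2 p53-/- arrays of that time ended the 18 h call (2.02 to 3.23).

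Chd3, a chromatin remodeler of the NuRD complex and 8 coding genes before Trp53, was lower in p53-/- cells on its brighter probe. WT clones gave 9.40, 9.95 and 9.75 at 0 h, 10.65, 10.80 and 10.31 at 6 h, and 11.82, 11.93 and 10.96 at 18 h. The p53-/- clones gave 8.20, 8.91 and 6.64 at 0 h, 9.07, 9.11 and 7.02 at 6 h, and 8.88, 9.48 and 4.94 at 18 h. The third p53-/- clone was the lowest at each time, and the groups were separate within each time. The difference was called at 18 h only (-2.71 ± 0.493, adjusted p = 0.00145; -1.95 and -1.80 at 0 and 6 h, adjusted p = 0.0279 and 0.00771), although with clone as a block that at 6 h was called as well (-1.83, adjusted p = 0.00213). The rise of 1.92 in WT clones by 18 h was called too (adjusted p = 0.00119), though not without any 1 of 9 arrays (1.54 to 2.19). The 18 h difference was -2.59 without the third p53-/- array of that time, and its call was lost without the first or the second array of either genotype (-4.86 to -2.33). The other Chd3 probe differed by -0.54, -0.20 and -0.29 (none called).

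Tmem107, a protein of the ciliary transition zone, lies 19 coding genes before Trp53 and had 3 detected probes. On the brightest the WT clones gave 8.81, 8.18 and 8.6 at 0 h, 8.12, 7.56 and 8.01 at 6 h, and 7.45, 6.82 and 7.65 at 18 h. Values in the p53-/- clones were 8.64, 9.72 and 8.55 at 0 h, 9.51, 9.40 and 9.11 at 6 h, and 9.07, 9.19 and 9.68 at 18 h. The groups overlapped with IL-3 and parted after its removal, as the WT level fell by 1.24 by 18 h (adjusted p = 0.000493) and the p53-/- level changed by 0.18 (adjusted p = 0.851). The difference was 0.65 ± 0.312 at 0 h (not called), 1.58 ± 0.25 at 6 h (adjusted p = 0.000519) and 2.07 ± 0.285 at 18 h (adjusted p = 0.00022), and 1.30 ± 0.214 over clone means (adjusted p = 0.0299), while the change in the difference by 18 h (1.42) was not called (adjusted p = 0.0853). The fall in WT cells was not called without the first or the second WT array of 18 h (-1.09 to -0.78) or in the authors' processed values (-0.45). The calls at 6 and 18 h were lost without the first or the second p53-/- array of that time (1.42 to 1.48 and 2.29 to 2.34), and the call over clone means was lost without any 1 of the 6 clones or any 1 of 5 arrays (1.10 to 1.41). A second probe (ILMN_2732649) was not detected in WT cells at 18 h, against which the p53-/- level was at least 2.07-fold higher (adjusted p = 0.00148). In the authors' processed values this difference was 0.29 and was not called. The third probe was at least 1.44-fold higher (adjusted p = 0.0197, not called). The promoter window (GRCm38.p6, chr11:69070559-69070858, plus strand) is shown because it held a p53 half-site decamer, here in capitals.
Tmem107: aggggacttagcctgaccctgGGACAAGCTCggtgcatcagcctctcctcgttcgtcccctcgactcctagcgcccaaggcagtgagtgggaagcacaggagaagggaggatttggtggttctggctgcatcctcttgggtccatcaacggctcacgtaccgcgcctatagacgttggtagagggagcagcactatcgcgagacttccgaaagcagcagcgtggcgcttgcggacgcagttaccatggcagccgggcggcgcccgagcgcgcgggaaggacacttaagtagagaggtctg

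A p53 half-site decamer was found in 8.36% of all 32851 promoter windows and in 3 of the 57 windows of the 39 members that had one (Tmem107, Wrap53 and Asgr2). CACGTG, a motif of basic helix-loop-helix factors, was found in 7.15% of all windows and in 9 of the 57, in the genes Eif4a1, Eif5a, Per1, Wrap53, Pelp1, Dvl2 and Asgr2. A match describes the letters of the window only.

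At any time or over clone means, 14 of the 40 measured members had a probe called between the genotypes, against 18.9% of all 11194 measured genes. The roles hold few genes each, and their counts are a description. The 5 members that act on RNA and translation were all measured, and 4 of them had a probe called between the genotypes at some time. Of the 9 members in signaling and scaffolds 6 were measured and 3 called (Tnfsf13, Tax1bp3 and Rabep1). Of the 10 members in transcription and chromatin 8 were measured and 2 called (Chd3 and Camta2), and of the 8 in metabolism and mitochondria all were measured and 3 called (Mpdu1, Eno3 and C1qbp). Tmem107 was the 1 called of 7 measured in the group of nucleus, division and cytoskeleton, Atp1b2 the 1 of 2 among membrane proteins of other tissues, and none of the 4 in proteostasis and membrane traffic (Derl2, Psmb6, Trappc1 and Vamp2) was called.

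The translation factors and C1qbp fell when IL-3 was removed. Eif5a, the hypusine-bearing elongation factor, gave 14, 13.89 and 13.92 in WT clones at 0 h, 13.17, 13.08 and 13.09 at 6 h, and 12.21, 12.24 and 12.49 at 18 h on its brightest probe. In p53-/- clones it gave 14.52, 14.02 and 14.53 at 0 h, 13.80, 13.82 and 14.05 at 6 h, and 13.66, 13.24 and 14.08 at 18 h. The level fell in both genotypes and stayed higher in p53-/- cells at 6 and 18 h, where no arrays overlapped. By 18 h it fell by 1.64 in WT (adjusted p = 2.62e-07) and by 0.90 in p53-/- cells (adjusted p = 0.0106), and the difference went from 0.45 ± 0.174 at 0 h (not called) to 0.73 ± 0.139 at 6 h (adjusted p = 0.00194) and 1.19 ± 0.159 at 18 h (adjusted p = 0.000183). The change in the difference by 18 h was 0.74 (adjusted p = 0.105, not called). A second Eif5a probe was called at the same times (0.83 and 0.92), and another was not detected in WT cells at 6 h, where the p53-/- level was at least 2.09-fold higher (adjusted p = 0.00128; not called in 4 settings, 0.20 to 1.63 on the log2 scale). The genotype calls of the brightest probe were lost without the second WT or the first or the second p53-/- array at 6 h (0.71 to 0.82) and without the first p53-/- array at 18 h (1.39), and its fall in p53-/- cells was not called without any 1 of 13 arrays (-0.91 to -0.49).

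Eif4a1, the helicase of cap-dependent initiation, fell from 12.80 ± 0.18 at 0 h to 11.61 ± 0.15 at 6 h and 11.18 ± 0.13 at 18 h in WT clones, and from 12.87 ± 0.39 to 12.16 ± 0.41 and 11.66 ± 0.31 in p53-/- clones (SD, n = 3). The falls in WT cells were called (-1.23 and -1.64, adjusted p = 0.000102 and 1.96e-06), as was that in p53-/- cells by 18 h (-1.32, adjusted p = 0.00497), and no genotype difference was called. The fall in p53-/- cells lost its call without any 1 of 4 arrays of that genotype (-1.30 to -1.04). Its promoter window (GRCm38.p6, chr11:69672374-69672673, minus strand) is shown with its CACGTG in capitals.
Eif4a1: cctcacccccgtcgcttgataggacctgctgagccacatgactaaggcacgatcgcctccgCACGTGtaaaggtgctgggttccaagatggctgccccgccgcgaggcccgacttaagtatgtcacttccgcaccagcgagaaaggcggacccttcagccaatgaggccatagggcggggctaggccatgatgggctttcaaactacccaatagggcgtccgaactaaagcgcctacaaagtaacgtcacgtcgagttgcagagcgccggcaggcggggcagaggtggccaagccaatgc

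C1qbp, a protein of the mitochondrial matrix, lies 83 coding genes after Trp53. WT clones gave 11.52, 11.84 and 11.49 at 0 h, 10.79, 10.69 and 10.12 at 6 h, and 9.56, 9.25 and 9.63 at 18 h. The p53-/- clones gave 11.79, 12.25 and 12.19 at 0 h, 11.56, 11.61 and 11.98 at 6 h, and 10.57, 10.75 and 11.34 at 18 h. The 2 genotypes overlapped at 0 h and were apart at 6 and 18 h. The fall by 18 h was 2.36 in WT and 1.40 in p53-/- cells (adjusted p = 8.9e-08 and 0.00371), and the genotype difference was 0.34 at 0 h (not called), 1.04 ± 0.18 at 6 h (adjusted p = 0.000964) and 1.31 ± 0.205 at 18 h (adjusted p = 0.000544). The change in the difference by 18 h was 0.97 (adjusted p = 0.101, not called). The 18 h genotype call was lost without the second WT or the first or the second p53-/- array (1.10 to 1.66), and the fall in p53-/- cells without the second 0 h array or the first or the second 18 h array of that genotype.

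Per1, a repressor of the circadian clock 17 coding genes before Trp53, was the 1 member whose change from 0 h to 18 h was called different between the genotypes, against 1.31% of all probes. WT clones gave 5.66, 6.09 and 6.63 at 0 h, 7.03, 7.26 and 7.22 at 6 h, and 7.64, 7.67 and 7.28 at 18 h. Values in the p53-/- clones were 6.31, 6.80 and 6.91 at 0 h, 6.45, 6.80 and 7.03 at 6 h, and 6.71, 6.72 and 7.67 at 18 h. The WT level rose with time in every clone, while in the p53-/- clones it stayed within the 0 h range on all but 2 of the 6 later arrays, both of the third clone. The rise was 1.07 by 6 h and 1.49 by 18 h in WT (adjusted p = 0.000544 and 7.5e-06). In p53-/- cells the fitted changes were -0.01 and 0.06 (adjusted p = 0.993 and 0.943), with little weight on the third clone at 18 h. Unweighted p53-/- means were 6.67 at 0 h and 7.03 at 18 h. The difference between the 2 fitted changes at 18 h was -1.43 ± 0.321 (adjusted p = 0.0351). That call was lost without any 1 of 12 of the 18 arrays (-1.44 to -0.99). With clone as a block it held (-1.40, adjusted p = 0.0117) and Rnasek was called as well (1.54, adjusted p = 0.0149), against 2.52% of all probes. The second Per1 probe was called lower in WT cells at 6 and 18 h (-0.95 and -0.81), the opposite direction, but it was detected on 3 arrays in all, each at 0 h, and gives no bound above 1. No member was called for a genotype difference in the change from 0 h to 6 h, against 0.0140% of all probes, while 12 of the 54 had an unadjusted p under 0.05, against 8.93% of all probes.

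**Figure D3:**
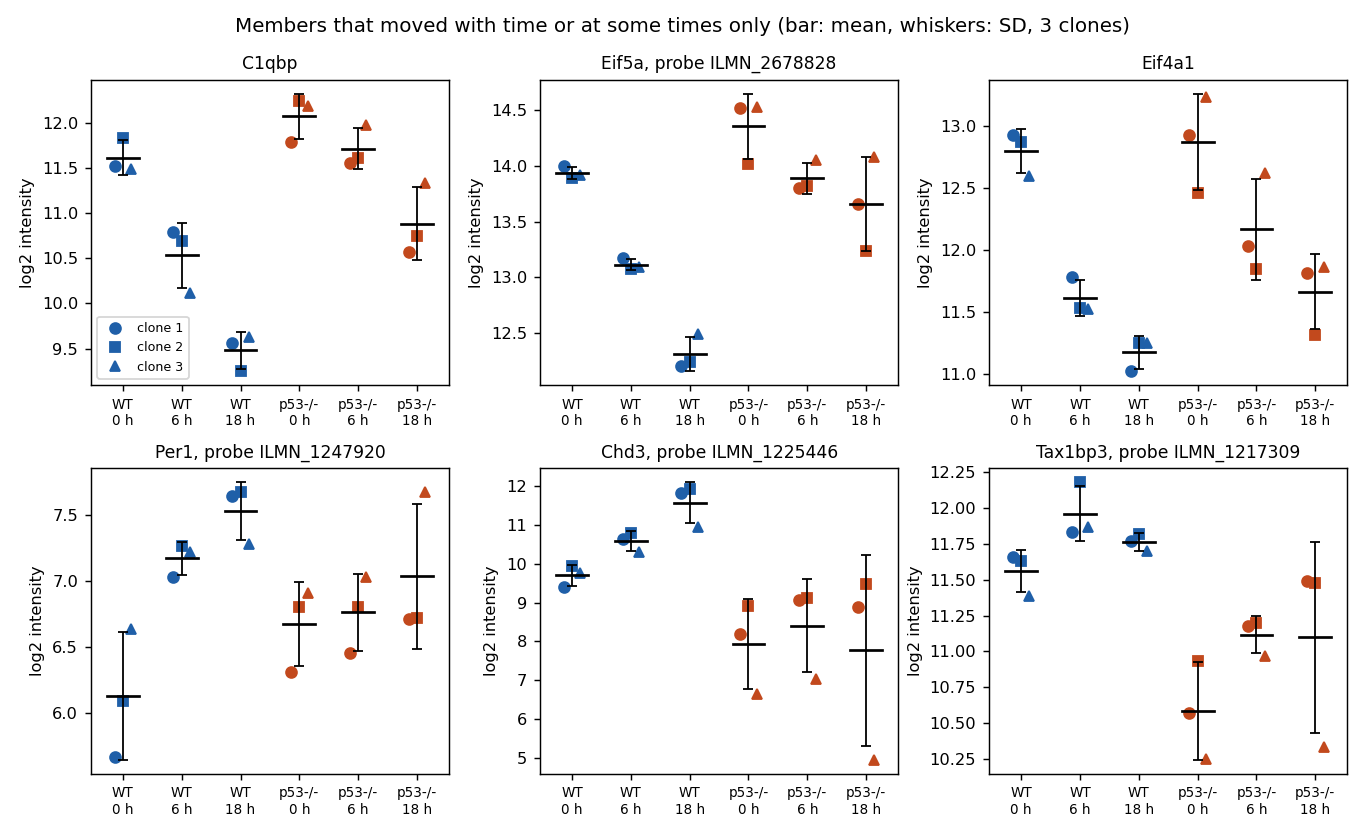
Log2 intensity (y axis) of 6 member probes by group (x axis), with symbols for the 3 clones of a genotype, bars for the mean and whiskers for the SD. C1qbp, Eif5a and Eif4a1 fell with time in both genotypes, Per1 and Chd3 rose in WT clones, and Tax1bp3 was lower on the p53-/- arrays at 0 and 6 h.

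In WT cells 2 member probes were called higher and 7 lower at 6 h against 0 h, and 4 higher and 9 lower at 18 h, while the shares over all probes were 2.56% and 3.82% at 6 h and 8.88% and 9.34% at 18 h. With median scaling the member counts were 1 and 7 at 6 h and 1 and 9 at 18 h. Over all probes 210 were then called higher and 619 lower at 6 h, and 1235 and 1880 at 18 h. With quantile normalization those counts were 549 and 818, and 1902 and 2001. With clone as a block 16 were called in WT cells at 18 h, against 22.6% of all probes, and those added were Tnfsf13, Derl2 (-0.69, adjusted p = 0.000385) and Psmb6 (-0.54, adjusted p = 0.000811). In p53-/- cells at 18 h the block added the brighter Tax1bp3 probe (0.83, adjusted p = 0.00754). In p53-/- cells no member was called at 6 h in either direction (0.710% of all probes were higher and 0.985% lower), while 13 of the 54 had an unadjusted p under 0.05, against 18.1% of all probes. With clone as a block 2 were called (Rpain and Rnasek), against 2.92%. At 18 h 3 were called higher and 5 lower, against 1.34% and 2.23%. Members that were called with time and in no genotype comparison were Eif4a1, Spag7, Rpain, Nup88, Arrb2 and Pelp1. Arrb2, the scaffold beta-arrestin 2, rose by 0.92 by 18 h in WT clones (adjusted p = 0.00139), and Rpain, which carries replication protein A into the nucleus, rose by 1.07 in WT and 1.45 in p53-/- clones (adjusted p = 0.000734 and 0.0111). Pelp1, a nuclear receptor coregulator, fell by 1.20 in the fit of the p53-/- clones (adjusted p = 0.0118). The third p53-/- clone moved the other way by 18 h, from 9.42 to 8.91 for Rpain and from 7.77 to 8.09 for Pelp1. Its 18 h array had little weight in the fit, so both p53-/- changes followed the first and the second clone. Spag7 was not detected in WT cells at 18 h and was at least 1.80-fold lower then (adjusted p = 0.000216), and the nuclear pore protein Nup88 fell by 1.68 in WT clones on 1 of 2 detected probes (adjusted p = 0.00134). The calls of Arrb2, Nup88 and Pelp1 and that of Rpain in p53-/- cells were lost without any 1 of 10 or more arrays. Another Rpain probe read 5.18 on the first WT array at 0 h, where it was not detected, and 10.63 to 12.43 on the other 17 arrays.

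Members farther from Trp53 were called at some times and not at others. Tax1bp3, a PDZ-domain protein and the most distant member, was lower in p53-/- cells on both detected probes at 0 h (-1.02 ± 0.192 and -1.14 ± 0.20, adjusted p = 0.00395 and 0.00284) and at 6 h (-0.84 on both, adjusted p = 0.00139 and 0.00191). On the brighter probe WT clones gave 11.66, 11.63 and 11.39 at 0 h, 11.83, 12.18 and 11.87 at 6 h, and 11.77, 11.82 and 11.70 at 18 h, and p53-/- clones gave 10.57, 10.93 and 10.25, then 11.18, 11.20 and 10.97, then 11.49, 11.48 and 10.33. All 9 p53-/- arrays were below the WT arrays of the same time. At 18 h the fitted difference was -0.35 and was not called (adjusted p = 0.184), with little weight on the third clone. The 0 h calls were lost without any 1 of 4 arrays on this probe (-1.01 to -0.85) and any 1 of 2 on the other (-0.94 to -0.91), and the 6 h calls on both without the second WT or the first or the second p53-/- array of 6 h.

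Rnasek, the ribonuclease kappa, was called lower in p53-/- cells at 0 h only (9.58, 10.61 and 9.68 against 11.23, 11.34 and 10.85 in WT). That difference was -1.29 ± 0.277 (adjusted p = 0.00819). At 6 and 18 h the fitted difference was -0.10 and 0.31. The fitted p53-/- level rose by 1.39 by 18 h (adjusted p = 0.0126), not called without any 1 of 14 arrays (0.41 to 1.39). At 18 h the p53-/- clones gave 11.32, 11.50 and 9.42 against 10.99, 10.93 and 11.64 in WT. The third p53-/- clone, with little weight at 18 h, did not rise and was below every WT array of that time. Unweighted means at 18 h were 10.75 in p53-/- and 11.18 in WT cells. The 0 h call was lost without any 1 of 6 arrays (-1.32 to -1.08). Eno3, the muscle enolase, was called higher in p53-/- cells at 6 h (8.91, 8.57 and 8.84 against 8.06, 7.14 and 7.25). The difference was 1.31 ± 0.222 (adjusted p = 0.000865), and its call was lost without the first p53-/- array of that time (1.27). At 0 h the p53-/- arrays (9.23, 9.54 and 9.31) were also all above the WT arrays (8.44, 8.34 and 8.24). The differences of 1.03 at 0 h and 0.47 at 18 h were not called (adjusted p = 0.0246 and 0.214, B below 0 at both). Over clone means the difference was 1.04 (adjusted p = 0.0416, B below 0). The change in the Eno3 difference was 0.281 by 6 h and -0.558 by 18 h (adjusted p = 0.869 and 0.463, neither called). Camta2, a calmodulin-binding transcription activator, was called lower at 6 h (10.85, 11.05 and 10.74 against 11.62, 11.64 and 11.79). The difference was -0.74 ± 0.156 (adjusted p = 0.00357). This call was lost without any 1 of the 6 arrays of that time (-0.87 to -0.70). The fitted differences of -0.426 at 0 h and -0.711 at 18 h were not called (adjusted p = 0.168 and 0.0104, B below 0 at both). At 18 h the p53-/- clones gave 10.59, 11.13 and 11.81 against 11.70, 11.69 and 11.20 in WT. The change in the difference was -0.312 by 6 h and -0.285 by 18 h (adjusted p = 0.761 and 0.619). Rabep1, an effector of the endosomal GTPase Rab5, was detected in 2 p53-/- clones and in no WT clone at 18 h and was at least 1.27-fold higher then (6.86, 6.22 and 4.80 against 4.89, 4.90 and 5.31; adjusted p = 0.00192), although the third p53-/- clone lay below the WT arrays and the call was lost without the first or the second array of either genotype.

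The other 25 measured members were not called between the genotypes at any time or for a change in the difference. On the brightest probe of each gene their differences ranged from -1.04 to 1.06 at 0 h (median 0.12), from -0.79 to 0.82 at 6 h (median 0.25) and from -0.90 to 1.49 at 18 h (median 0.17). Besides the 6 that moved with time they were Zbtb4, Med11, Phf23 and Gps2 in transcription, Mink1 and Acap1 in signaling, Senp3, Mis12, Kif1c and Pfn1 in the nucleus and cytoskeleton, Derl2, Psmb6, Trappc1 and Vamp2 in proteostasis and traffic, Acadvl, Sat2, Pfas and Plscr3 in metabolism, and Chrnb1, the beta subunit of the muscle acetylcholine receptor. Mink1, Mis12, Plscr3 and 1 probe of Sat2 were detected on 3 arrays or fewer, so a difference below background was not detectable there.

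The same fit was read for the 49 other genes that lie between Pfas and Tax1bp3 and had a detected probe (74 probes). At 0 h 6 of these probes were called higher and 1 lower, at 6 h 6 and 2, and at 18 h 6 and 3, or 9.46%, 10.8% and 12.2% of them. In the rest of chromosome 11 (1307 probes) the shares were 4.51%, 9.87% and 7.65%, and on the other chromosomes (14829 probes) 4.92%, 8.65% and 7.59%. Called at all 3 times in 1 direction were 5.41% of the other probes of the interval, 1.07% of those in the rest of the chromosome and 1.27% of those on other chromosomes. Ranked by measured genes from Wrap53 on both sides, 3 of 67 probes were called at all times among the nearest 25 genes a side (4.48%), 3 of 71 in ranks 26 to 50 (4.23%), 1 of 143 in ranks 51 to 100 (0.699%), 2 of the 298 probes in the next 200 genes (0.671%) and 11 of the 855 probes beyond (1.29%). Genes of 1 interval share clones and arrays, and no test was made of these shares.

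**Figure D4:**
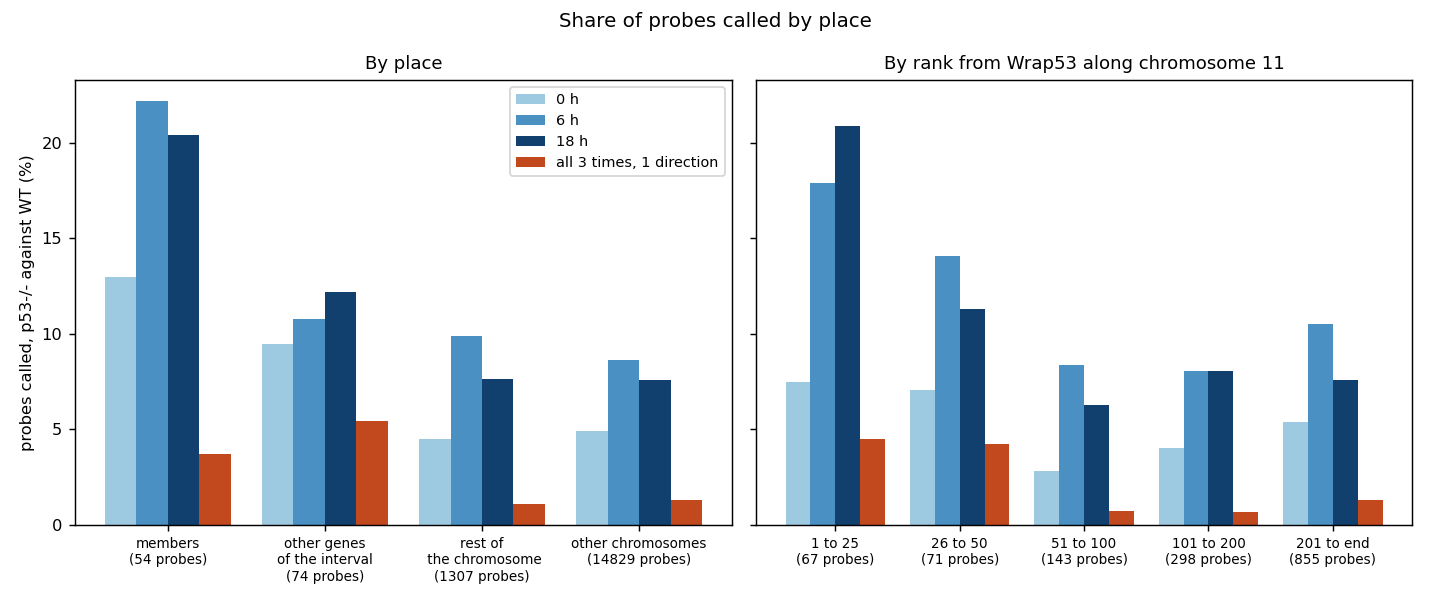
Share of probes called between p53-/- and WT cells (y axis, %) at 0, 6 and 18 h and at all 3 times in 1 direction, by place in the genome (left) and by rank of measured genes from Wrap53 on both sides (right). The members and the nearest ranks had the tallest bars at 18 h (20.4% and 20.9%), with 54 and 67 probes.

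Between Pfas and Tax1bp3, the persistent probes that were not members came from 3 genes. 4933427D14Rik, 94 coding genes after Trp53, lay between 7.31 and 8.29 (median 7.77) on the WT arrays and between 4.54 and 6.77 (median 4.65) on the p53-/- arrays, which did not overlap. It was detected on all 9 WT arrays and on 1 p53-/- array, that of the third clone at 6 h. At 0 and 18 h, where no p53-/- array detected it, the WT level was at least 3.96-fold and at least 3.80-fold above that of p53-/- cells (adjusted p = 0.000547 and 3.62e-05), and it was called at 6 h and over clone means as well (adjusted p = 4.98e-06 and 0.0143). Elp5, a subunit of the Elongator complex that modifies tRNA, lies 36 coding genes after Trp53 and was higher in p53-/- cells on 1 of 3 probes (1.08, 0.75 and 1.10; 6.83 to 7.52 on WT and 7.84 to 9.08 on p53-/- arrays), while its other probes differed by -0.10 to 0.48 and were not called. Rnf167, a ubiquitin ligase of endosomes and lysosomes, lies 71 coding genes after Trp53 and was higher at all times on 2 of 4 probes, by 1.42, 0.87 and 0.89 on one and by 1.13, 0.73 and 1.03 on the other. On all 4 Rnf167 probes the difference was above 0 at each time, from 0.42 to 1.42. As with Fxr2, probes of Elp5 differed in their calls.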

How the data were processed

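RNA of 18 cultures was hybridized to Illumina MouseWG-6 V1 BeadChips. The authors deposited mean bead intensities that were not normalized between arrays, and with them a detection score, here turned back into a p-value (1 minus the score). The authors also deposited log2 values made with lumi and quantile normalization, whose transform is not given in the sources used here, and these served only as an alternative. The study's methods mention leaving out an array without naming it, so all 18 were used.

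Intensities were corrected with normexp from the detection p-values (offset 16), quantile normalized and taken to log2. A probe entered the tests if any array gave it a detection p below 0.01, which left 21413. limma 3.58.1 in R 4.3.3 fitted 6 groups with array weights, and p-values were adjusted over all kept probes (Benjamini-Hochberg). A second fit compared the unweighted means of the 6 clones. Plotted and printed group means are unweighted, fitted differences weighted. The scripts were tested on simulated data. p-values measure the spread between these arrays and clones, and the number of arrays limits their precision. A bound ("at least") sets the bright group against, on each array of a group without detection, the higher of the dimmest detected probe and the probe itself.

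Replicate numbers mark a clone within a genotype, per the study's methods. Deviations from the group means correlated within clones (r from 0.276 to 0.756, 18 pairs) and not between genotypes (-0.0417 to 0.0336, 9 pairs), so clone was tried as a random block (correlation 0.246). Other alternatives were median scaling, no background correction, no filter, detection on at least 3 arrays, no array weights, the authors' values, an adjusted p of 0.05 without B, only the 6 arrays compared, and leaving out each array or clone.

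Array annotation gave 1 symbol for 29976 probes, several for 10 and none for 16646, and 29971 matched the RefSeq gene table; 22 symbols were updated. Members, gene lists and roles were chosen with earlier results of these data known. Named in full were members with a probe called in any genotype comparison or interaction, then members called with time only, then other genes of the interval called at all 3 times or over clone means, and Cdkn1a. Promoter windows are from RefSeq (GRCm38.p6), matched by symbol for 39 of the 51 members. Probe positions and slide or scan batches were not used here, and the targeted gene itself was not analysed here.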

Additional observations from a re-analysis of the deposited data

Results flagged for a closer look

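For 1 result the effect of IL-3 removal was called different between the genotypes. The fitted change of Per1 (ILMN_1247920) from 0 h to 18 h was 1.49 in WT and 0.06 in p53-/- clones on the log2 scale. The difference between these changes was -1.43 (SE 0.321, adjusted p = 0.0351 by limma over all 21413 probes). It was -1.30 without the filter on detection and -1.04 without array weights, neither called. The third p53-/- clone, at 7.67, lay within the WT range at 18 h, and the first and the second lay below it.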

How the results depend on the processing

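No called value of a named member changed sign: of 1712 recomputed values for 64 called differences, 1375 kept their call and 337 lost it. Of 91 recounts of called members outside the left-out arrays, 61 were within 1.5 times the reported count. Without array weights the counts were 4 at 0 h, 4 at 6 h and 7 at 18 h between genotypes, 0 for the change in the difference by 18 h, 3 and 5 for WT cells at 6 and 18 h, and 3 for p53-/- cells at 18 h. With only the 6 arrays compared they were 4, 4 and 7. At an adjusted p of 0.05 without B they were 11 at 0 h, 9 over clone means, 2 for the change by 18 h, 15 and 32 for WT cells at 6 and 18 h, and 2 and 15 for p53-/- cells. Over clone means 6 were called without background correction, 6 without the filter and 5 with the authors' values. For the change by 18 h the counts were 2 without background correction, 0 without the filter and 2 with detection on at least 3 arrays. Without the filter 8 were called in WT cells at 18 h, and for p53-/- cells at 6 h 1 was called without background correction, 1 without the filter and 1 with the authors' values. The clone as a replicate block gave 14 over all times, 2 for the change by 18 h and 2 for p53-/- cells at 6 h; its other counts were within 1.5 times. The cause of these shifts was not tested. Apart from the clone block, no share over all probes is given for these settings or for left-out arrays. The counts therefore show how calls depended on the setting and are no result about the members. No member was called for the change by 6 h in any setting.

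Leaving out 1 array (or clone) gave 3 to 8 calls at 0 h, 5 to 13 at 6 h, 1 to 11 at 18 h, 2 to 4 over clone means, 1 to 2 at all 3 times, 0 to 2 for the change by 18 h, 2 to 9 and 7 to 16 in WT cells at 6 and 18 h, and 0 to 3 and 0 to 8 in p53-/- cells. The lowest count at 18 h came without the first p53-/- array of that time. Without the third, which had the fewest detected probes, 11 were called at 18 h, 7 at 0 h and 13 at 6 h. Dim probes limit the set: 9 members were not detected on any array, and differences of probes near background are bounds.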
